A study of Mus musculus with 8 samples.

Results

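Metallothioneins and zinc transporters set how much zinc a cell takes up, stores and passes out, and 9 genes of this system were followed in mouse CD8+ T cells before and after culture. The 9 genes were the metallothioneins *Mt1* and *Mt2*, the metal-sensing transcription factor *Mtf1*, the zinc exporters *Slc30a1* and *Slc30a4* and the zinc importers *Slc39a1*, *Slc39a6*, *Slc39a7* and *Slc39a10*. They were found by symbol among the 48321 genes listed, and all 9 were listed and passed the filter on low counts, which left 12597 genes. They were selected from their expression in these same libraries, as counts scaled to library size (CPM) over both days and both genotypes, so the values of the 9 genes are a description and carry no test.

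The cells were sorted from spleen of C57BL/6 mice and are described as peripheral CD8+ T cells, the cytotoxic lineage of T lymphocytes. The series concerns mice with floxed *Satb1* alleles and the *E8I-cre* transgene (*Satb1* F/F; *E8I-cre*), a Cre driver that is active in mature cells of the CD8 lineage. SATB1 is a nuclear protein that organises chromatin in T cells. The libraries are labelled WT or KO and day 0 or day 5, which gives 4 groups of 2 libraries each. Day 0 cells were taken before culture and day 5 cells were cultured in vitro. The stimulus, and whether the WT mice carried the floxed alleles or the transgene, are not stated in the sources used here. Age and sex of the mice are not stated either. The labels do not say that libraries of a group came from separate mice, so standard errors and p-values measure the spread between these libraries, which may be technical.

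Counts assigned to genes totalled 4170126 to 11117971 per library, 21.2 to 24.5% of everything the counting program tallied. *Satb1* itself was at 97.5 and 91.3 CPM in the WT libraries and at 144 and 124 CPM in the KO-labelled libraries at day 0 (log2 fold change 0.51, SE 0.15, FDR 0.125), which runs against the label. At day 5 it was at 96.1 and 116 CPM in WT and at 56.3 and 62.1 CPM in the KO-labelled libraries, and there edgeR's quasi-likelihood test gave FDR 0.0162 for a log2 fold change of -0.84 (SE 0.15), a call lost without the second WT library of day 5 (FDR 0.0869) or either KO-labelled one (0.174 and 0.165). Counts do not show which exons the reads came from, so the groups are called WT and KO-labelled throughout. Summed over 7 markers of CD8 T cells, expression was 12100 to 13500 CPM in the 8 libraries, but this sum holds changes in both directions over culture. In WT the granule protease gene *Gzmb* rose from 3.21 and 3.83 to 4789 and 4413 CPM (FDR 3.09e-12), while the coreceptor gene *Cd8b1* fell from 4042 and 3650 to 1274 and 1194 CPM (FDR 7.82e-08) and *Cd8a* from 1450 and 1400 to 830 and 731 CPM (FDR 2.98e-05). *Cd8a* in the KO-labelled libraries was at 1372 and 1380 CPM at day 0 and at 1211 and 1160 CPM at day 5 (log2 fold change -0.21, SE 0.11, FDR 0.112). At day 5 it was thus higher than in WT (0.60, SE 0.11, FDR 0.0155), which was not called without either KO-labelled library of day 5 (FDR 0.129 and 0.135) or in a fit of the 4 day 5 libraries alone (0.0593). The 3 markers of CD4 T cells summed to 1.35 to 6.24 CPM. They were highest in the KO-labelled libraries at day 0 (6.24 and 6.03 CPM, against 3.56 and 1.35 in WT), mostly *Cd40lg* (5.64 and 3.84 CPM), while *Cd4* itself did not exceed 0.960 CPM in any library. The part of these cells in the results was not tested.

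Zinc cannot be made or broken down, and cells hold its free level low by transport and by binding. Metallothioneins are small cysteine-rich proteins that bind zinc and copper. ZnT proteins, encoded by the *Slc30* genes, move zinc out of the cytosol into vesicles or out of the cell, and ZIP proteins, encoded by the *Slc39* genes, move it into the cytosol. MTF1 is a zinc finger protein that binds DNA at metal response elements when zinc rises, and *Mt1*, *Mt2* and *Slc30a1* are its classical targets. *Slc39a10* is known as a gene that MTF1 represses. In T cells zinc entry through ZIP6 and ZIP8, the products of *Slc39a6* and *Slc39a8*, has been linked to activation.

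The promoters of the 4 genes with a metal response element core are shown because this core is the part of the element that MTF1 needs for binding. Sequences were from RefSeq (GRCm38.p6), from 250 bases before to 30 bases after the annotated start, written 5′ to 3′ on the strand of the gene. Capitals mark the core TGCACNC or TGCGCNC, searched on both strands, so that a match on the other strand is written as its reverse complement.
*Mt1* (chr8:94178839-94179118, + strand): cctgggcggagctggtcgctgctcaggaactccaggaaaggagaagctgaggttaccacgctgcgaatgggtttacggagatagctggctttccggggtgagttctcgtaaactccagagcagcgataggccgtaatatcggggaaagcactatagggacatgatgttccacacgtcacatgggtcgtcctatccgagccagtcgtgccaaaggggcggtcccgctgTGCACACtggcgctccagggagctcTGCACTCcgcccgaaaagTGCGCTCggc
*Mt2* (chr8:94172368-94172647, + strand): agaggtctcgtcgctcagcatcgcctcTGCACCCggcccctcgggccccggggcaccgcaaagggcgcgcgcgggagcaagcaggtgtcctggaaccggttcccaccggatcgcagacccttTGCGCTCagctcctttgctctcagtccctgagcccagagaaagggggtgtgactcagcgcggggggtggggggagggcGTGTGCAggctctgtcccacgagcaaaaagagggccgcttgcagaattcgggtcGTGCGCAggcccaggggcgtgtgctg
*Slc30a1* (chr1:191906531-191906810, + strand): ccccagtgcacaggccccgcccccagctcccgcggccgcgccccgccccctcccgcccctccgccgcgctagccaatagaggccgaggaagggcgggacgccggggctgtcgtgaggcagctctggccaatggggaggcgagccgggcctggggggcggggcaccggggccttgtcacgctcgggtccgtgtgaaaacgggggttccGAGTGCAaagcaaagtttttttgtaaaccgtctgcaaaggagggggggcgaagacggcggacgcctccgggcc
*Slc30a4* (chr2:122702634-122702913, - strand): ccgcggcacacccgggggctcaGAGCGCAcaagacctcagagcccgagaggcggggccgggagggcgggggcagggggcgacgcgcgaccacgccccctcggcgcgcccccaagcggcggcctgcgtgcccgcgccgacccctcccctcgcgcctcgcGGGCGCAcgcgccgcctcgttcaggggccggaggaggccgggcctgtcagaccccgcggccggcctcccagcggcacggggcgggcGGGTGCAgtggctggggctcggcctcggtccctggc

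The *Mt1* window held 3 core matches, beginning 23 bases before and 2 and 20 bases after the start. The *Mt2* window held 4, beginning 223, 128 and 50 bases before the start and 4 bases after it. Positions are from the RefSeq start, which was not mapped in these cells. In the annotation used for the gene coordinates below (GENCODE), *Mt2* starts at 94172664, past the end of its window at 94172647. All 4 *Mt2* matches thus lie upstream of that start. The *Slc30a4* window also held 3, beginning 228, 92 and 6 bases before the start, and the *Slc30a1* window held 1, beginning 43 bases before it. The windows of *Mtf1*, *Slc39a1* and *Slc39a7* and both windows of *Slc39a10* held none. Of all 32851 promoter windows of this length, 24.1% held at least 1 match, 1.73% at least 3 and 0.405% at least 4. The GC content of the 4 windows shown was 59.6% for *Mt1*, 68.6% for *Mt2*, 72.5% for *Slc30a1* and 82.1% for *Slc30a4*. The background of all windows was not matched for GC content. The core of the antioxidant response element, TGACNNNGC, was found once each in the windows of *Mt2*, *Slc30a1* and *Slc39a1*, against 11.5% of all windows, and none of its matches in the printed windows overlapped a metal response element core. A match describes the letters and shows no binding, and a window without a match says only that these letters are not in it. No sequence was used here for *Slc39a6*.

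**Figure D1:**
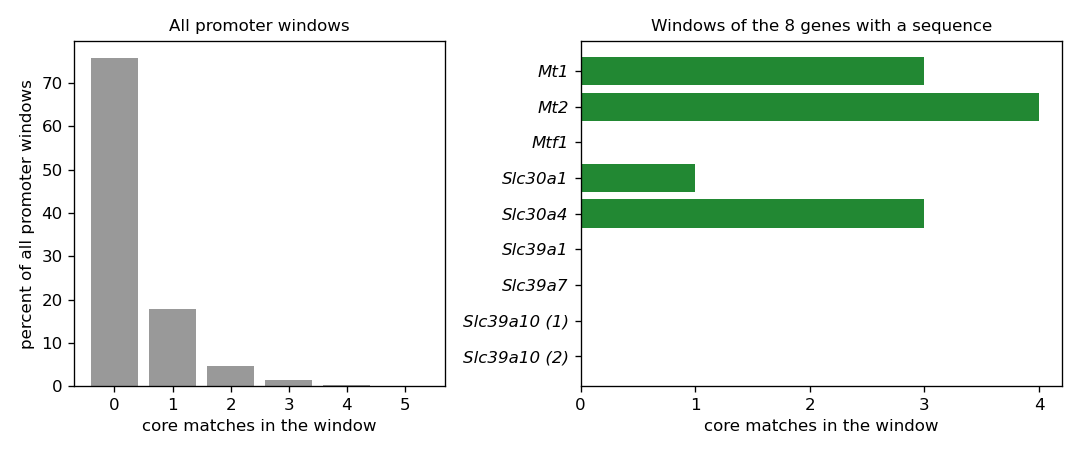
Metal response element cores in promoter windows of 280 bases. Left: percent of all 32851 windows (y axis) by number of matches (x axis); the 10 windows with 6 or more matches are not drawn. Right: number of matches (x axis) in each of the 9 windows of the 8 genes with a sequence, 3 for *Mt1*, 4 for *Mt2*, 1 for *Slc30a1*, 3 for *Slc30a4* and none for the others.

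The metallothionein transcripts were close to absent at day 0 and readily counted at day 5. *Mt1* (chr8:94179082-94180327, + strand, GRCm38) had no count in either WT library and 1 count in each KO-labelled library at day 0. At day 5 it was at 108 and 65.1 CPM in WT (86.7 ± 30.5, SD, n = 2) and at 112 and 120 CPM in the KO-labelled libraries (116 ± 5.66, SD, n = 2). Every day 5 library was therefore above every day 0 library in both genotypes. Pooled over the 2 WT libraries, 887 counts at day 5 stood against none at day 0, which is at least 301-fold higher when 3 counts over the group are taken as the floor (0.299 CPM). For the KO-labelled libraries, 1249 counts stood against 2, a ratio of 997 with an exact 95% counting interval of 275 to 8240. Intervals and floors cover counting error only, since reads carried no molecular identifiers.

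*Mt2* lies upstream of *Mt1* on the same strand (chr8:94172664-94173568) and showed the same split between days at a lower level. It had no count in WT at day 0, and 2 and 0 counts in the KO-labelled libraries. At day 5 it was at 12.1 and 9.36 CPM in WT (10.7 ± 1.95, SD, n = 2) and at 21.8 and 17.5 CPM in the KO-labelled libraries (19.7 ± 3.02, SD, n = 2). The day 5 to day 0 contrast was at least 36.7-fold higher in WT (108 counts against none) and 169-fold in the KO-labelled libraries (212 counts against 2, interval 46.3 to 1410). Of the *Mt2* exon bases, 73.5% lie within the antisense gene *Gm45774*, a symbol that is not among the genes listed in the deposited counts. The strand setting of the counting is not stated, so reads of *Mt2* and its antisense partner cannot be told apart.

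*Mt1* gave more counts than *Mt2* in each day 5 library, by 8.93 and 6.95 times in WT and by 5.14 and 6.85 times in the KO-labelled libraries. The *Mt2* share of the counts of both genes was 10.1% (exact binomial 95% interval 7.92 to 12.6) and 12.6% (9.10 to 16.8) in WT, and 16.3% (13.7 to 19.2) and 12.7% (10.4 to 15.4) in the KO-labelled libraries. The highest share was in 1 KO-labelled library, while the other lay beside the second WT library. Scaled by exon length as well as library size (RPKM), the level of *Mt1* at day 5 was 69.6 in WT and 93.2 in the KO-labelled libraries. That of *Mt2* was 18.3 and 33.5. The *Mt1* exon length used, 1246 bases, covers the whole span of the gene. Bases spliced out of its transcripts may thus be included, and its RPKM may be too low.

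**Figure D2:**
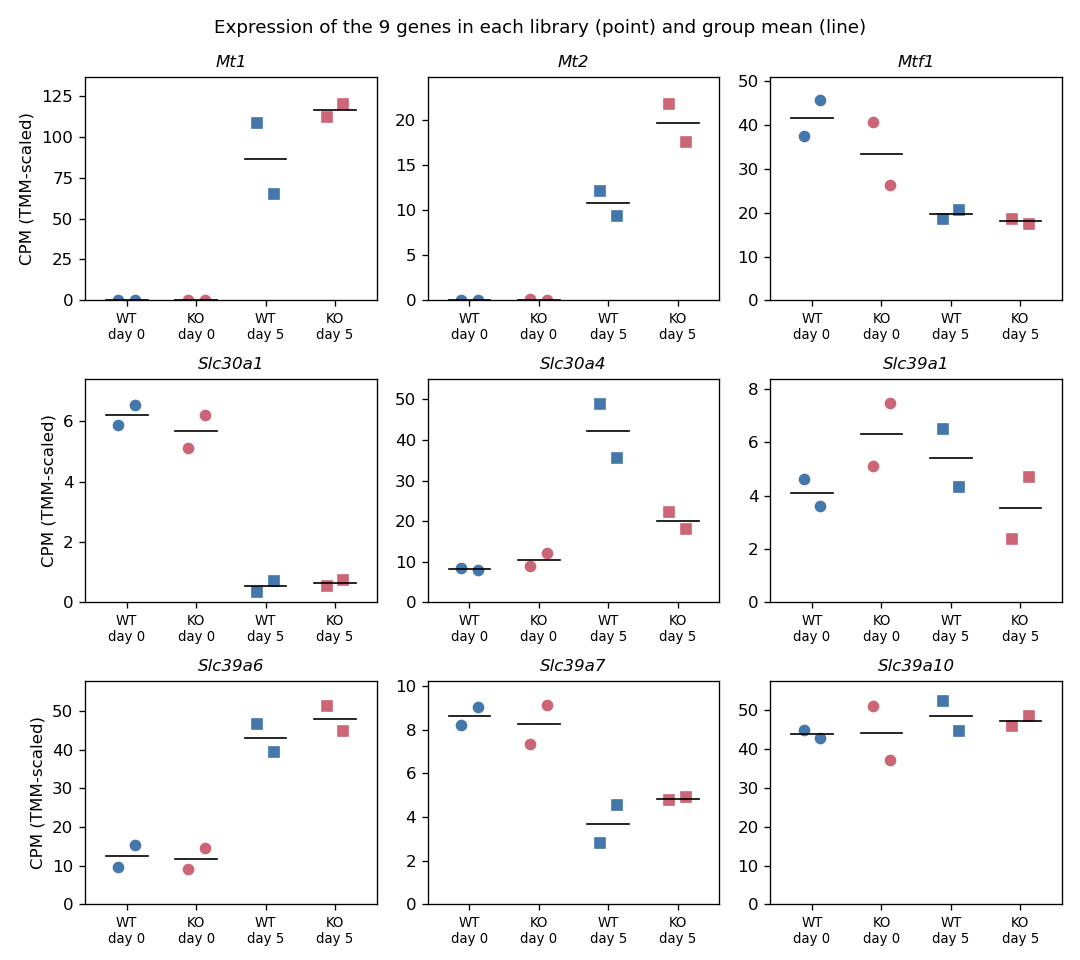
Expression of the 9 genes in each library. The y axis is CPM on TMM-scaled library sizes and starts at 0 in every panel, points are single libraries (2 per group) and lines are group means; *Mt1* and *Mt2* lie at or near 0 in all 4 day 0 libraries, *Slc30a1* is below 0.8 CPM in all 4 day 5 libraries, and *Slc39a10* stays between 37.1 and 52.4 CPM throughout.

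*Mtf1*, the factor that senses zinc and drives the metallothionein genes, was lower at day 5 (chr4:124802104-124849800, + strand). It was at 37.4 and 45.7 CPM in WT at day 0 and at 18.6 and 20.7 CPM at day 5, a log2 fold change of -1.08 (SE 0.23). The KO-labelled libraries held it at 40.7 and 26.3 CPM at day 0 and at 18.7 and 17.4 CPM at day 5, a log2 fold change of -0.91 (SE 0.23). The days did not overlap in either genotype, while the WT and KO-labelled libraries overlapped at both days. The 2 KO-labelled libraries at day 0 differed from each other by more than the 2 WT libraries did. Without the first of them the culture log2 fold change was -0.53 (SE 0.24). The genotype value at day 0 was -0.29 (SE 0.22), and it was -0.64 (SE 0.24) without the first and -0.01 (SE 0.21) without the second. *Mtf1* transcript and the metallothionein transcripts thus differed between days in opposite directions, and neither MTF1 protein nor zinc was measured.

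Of the exporters, *Slc30a1* encodes ZnT1, which carries zinc out across the plasma membrane (chr1:191906767-191913247, + strand). Its window above holds 1 core match, and its direction over culture was opposite to that of the metallothionein genes. It was at 5.88 and 6.53 CPM in WT at day 0 and at 0.352 and 0.720 CPM at day 5, and at 5.13 and 6.22 CPM and 0.550 and 0.755 CPM in the KO-labelled libraries. These day 5 values are counts of 2 and 3 in WT and 3 and 4 in the KO-labelled libraries. Pooled, 62 counts in WT at day 0 stood against 5 at day 5, a level 12.2-fold lower (interval 4.94 to 38.8), and 94 stood against 7 in the KO-labelled libraries, 8.41-fold lower (3.93 to 21.5). No day 5 library overlapped a day 0 library.

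*Slc30a4* encodes ZnT4, which loads zinc into vesicles (chr2:122681233-122702663, - strand), and it was the member with the widest gap between genotypes relative to its error. At day 0 it was at 8.56 and 7.89 CPM in WT and at 9.06 and 12.1 CPM in the KO-labelled libraries. At day 5 it was at 48.9 and 35.5 CPM in WT and at 22.2 and 18.1 CPM in the KO-labelled libraries. All 4 day 5 libraries were thus above all 4 day 0 libraries, and both KO-labelled libraries at day 5 were below both WT libraries. The log2 fold change from day 0 to day 5 was 2.36 (SE 0.25) in WT and 0.96 (SE 0.24) in the KO-labelled libraries. Between genotypes it was 0.33 (SE 0.27) at day 0 and -1.07 (SE 0.23) at day 5, and the difference of these (the genotype by day interaction) was -1.40 (SE 0.35). Without the first WT library at day 5 the genotype difference at day 5 was -0.81 (SE 0.26). Short stretches of the exons of *Slc30a4* (2.37%), *Slc30a1* (8.92%) and *Mtf1* (8.09%) lie opposite other annotated genes.

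Of the importers, *Slc39a6* encodes ZIP6, a plasma membrane importer (chr18:24579881-24603817, - strand), and it was higher at day 5 in both genotypes. It was at 9.62 and 15.3 CPM in WT at day 0 and at 46.6 and 39.4 CPM at day 5, a log2 fold change of 1.80 (SE 0.27). Its level in the other genotype was 9.06 and 14.6 CPM at day 0 and 51.3 and 44.7 CPM at day 5, a log2 fold change of 2.06 (SE 0.26). The days did not overlap, and within each day the genotypes overlapped. The genotype difference at day 0 had no settled sign, with -0.43 to 0.27 when 1 library was left out, and the interaction of 0.26 went to -0.12 without the first KO-labelled library at day 0 and to -0.10 without the second WT library at day 0.

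*Slc39a10* encodes ZIP10, another plasma membrane importer (chr1:46807544-46892852, - strand), and of the 9 genes it had the log2 fold changes nearest to 0. It was at 44.7 and 42.8 CPM in WT at day 0 and at 52.4 and 44.7 CPM at day 5. At day 0 the KO-labelled libraries were at 51.0 and 37.1 CPM, and at day 5 they were at 45.8 and 48.5 CPM. All comparisons of days and genotypes overlapped, and the log2 fold changes from day 0 to day 5 were 0.15 (SE 0.19) in WT and 0.09 (SE 0.18) in the KO-labelled libraries. Its 5 log2 fold changes, the interaction included, lay between -0.06 and 0.15 with standard errors of 0.18 to 0.26. Those involving the KO-labelled libraries of day 0 depended on single libraries: without the first of them the culture value was 0.36 (SE 0.20) and the genotype value at day 0 -0.22 (SE 0.21), and without the second they were -0.10 (SE 0.19) and 0.23 (SE 0.19).

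*Slc39a7* encodes ZIP7, which releases zinc from the endoplasmic reticulum and Golgi into the cytosol (chr17:34028269-34031682, - strand). It was at 8.20 and 9.01 CPM in WT at day 0 and at 2.81 and 4.56 CPM at day 5, a log2 fold change of -1.24 (SE 0.35). The KO-labelled libraries had it at 7.35 and 9.14 CPM at day 0 and at 4.77 and 4.91 CPM at day 5, a log2 fold change of -0.75 (SE 0.33). The days did not overlap, and the difference in WT shrank to -0.89 (SE 0.40) without the first WT library at day 5. In the annotation 80.7% of its exon bases are shared with the same-strand gene *Gm20427*, which the deposited tables list with 0 or 1 count per library. Both genes were thus in the annotation used for counting, and HTSeq by default sets aside as ambiguous the reads that fall in both.

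*Slc39a1* encodes ZIP1, a widely expressed plasma membrane importer (chr3:90248172-90253612, + strand), and its log2 fold changes over culture had opposite signs in the 2 genotypes. It was at 4.63 and 3.61 CPM in WT at day 0 and at 6.50 and 4.32 CPM at day 5, so the days overlapped in WT. In the KO-labelled libraries it was at 5.13 and 7.50 CPM at day 0 and at 2.38 and 4.72 CPM at day 5, and the days did not overlap. The log2 fold change was 0.40 (SE 0.43) in WT and -0.80 (SE 0.42) in the KO-labelled libraries, and the interaction was -1.20 (SE 0.61). The KO-labelled value was -0.38 (SE 0.49) without the first library of day 5, -1.34 (SE 0.55) without the second, and -1.25 (SE 0.41) with an offset for GC content and exon length. Of its 50-base windows, 21.8% also occur in the pseudogene *Slc39a1-ps*, and reads placed equally well at both would not be counted.

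**Figure D3:**
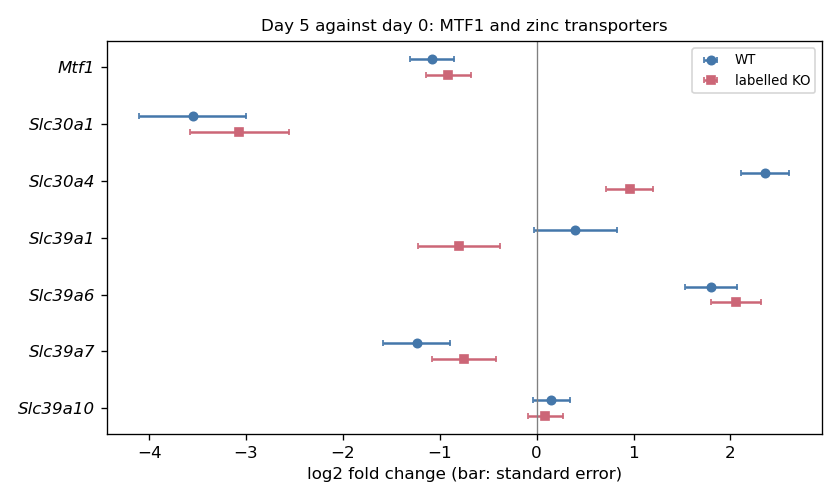
Log2 fold change of day 5 against day 0 (x axis) for *Mtf1* and the zinc transporters, with bars for the standard error from the fit over all genes, in WT (blue circles) and KO-labelled libraries (red squares). *Slc30a4* and *Slc39a6* lie above 0 and *Mtf1*, *Slc30a1* and *Slc39a7* below 0 in both genotypes, and *Slc39a10* lies at 0.15 and 0.09; *Mt1* and *Mt2* are left out because they had no count in WT at day 0.

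Read together by role, both metallothioneins were higher at day 5, the sensor was lower, and exporters and importers each split. In WT, 4 of the 9 genes were called higher (FDR under 0.05) and 3 lower, against a background of 48.3% of all genes tested called in that comparison, 24.7% higher and 23.6% lower. In the KO-labelled libraries, 4 were called higher and 2 lower, against 50.2% of all genes (26.2% higher and 24% lower). Groups did not overlap for 7 of the 9 genes in WT and 8 in the KO-labelled libraries, against 73.7% and 77.9% of all genes. The median log2 fold change of the 9 genes was 0.40 in WT and 0.09 in the KO-labelled libraries, beside medians of -0.04 and -0.05 over all genes. Since the 9 genes were selected with these comparisons in view, nothing is read from these counts. Leaving out 1 library gave 6 to 7 calls in WT and 4 to 6 in the KO-labelled libraries. *Slc39a7* was then not called in WT without the second library of day 0 or the first of day 5, and in the KO-labelled libraries *Mtf1* and *Slc30a4* were not called without the first of day 0, *Slc30a4* without the first of day 5 and *Mtf1* without the second of day 5. In the KO-labelled libraries 7 genes were called with library totals (*Slc39a7* added) and 8 with an offset that takes GC and length into account (*Slc39a1* and *Slc39a7* added). With library totals in place of TMM factors the median over all genes moved by -0.13 in WT and -0.18 in the KO-labelled libraries, and none of the 9 genes called in a comparison changed direction.

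Between genotypes the 9 genes lay closer together. At day 0 the groups did not overlap for 3 genes (*Mt1*, *Slc30a4* and *Slc39a1*), against 43.5% of all genes, and the *Mt1* gap there was 1 count in each KO-labelled library against none in WT. At day 5 they did not overlap for 4 genes (*Mt1*, *Mt2*, *Slc30a4* and *Slc39a7*), against 45.6% of all genes. *Mt1* and *Mt2* were higher in the KO-labelled libraries at day 5 by log2 fold changes of 0.42 (SE 0.22) and 0.86 (SE 0.32), and *Slc30a4* was lower. For *Mt1* the gap rested on the second WT library, since the log2 fold change was 0.84 (SE 0.20) without the first WT library and 0.11 (SE 0.18) without the second. *Slc30a4* was the single member past the FDR threshold at day 5, where 1.63% of all genes were called and 0.318% called lower. This is a description, from which nothing is read, since the members were selected on these values. *Slc30a4* did not pass when either WT library at day 0, either WT library at day 5 or either KO-labelled library at day 5 was left out, nor with an offset for GC content and exon length.

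**Figure D4:**
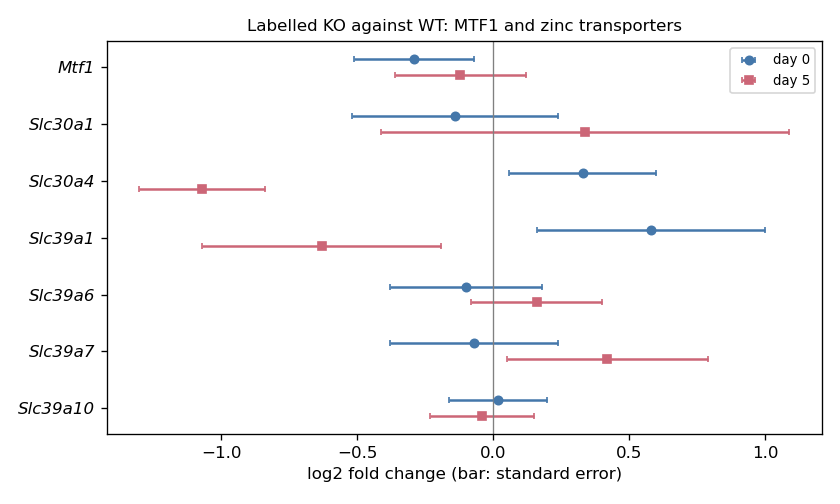
Log2 fold change of KO-labelled libraries against WT (x axis) for *Mtf1* and the zinc transporters, with bars for the standard error, at day 0 (blue circles) and day 5 (red squares). At day 5 *Slc30a4* lies at -1.07; at day 0 all 7 genes lie between -0.29 and 0.58.

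In levels scaled by exon length, the order of the 9 genes changed between days. The places of *Slc39a7*, *Slc39a1* and *Mt2* are uncertain. Full exon length was used although shared reads of the first 2 are not counted, and antisense reads may be counted in *Mt2*. The level of *Mt1* may be too low, since its exon length covers the whole gene. In WT at day 0 *Slc39a10* was highest (7.02 to 7.34 RPKM), followed by *Mtf1* (4.202 to 5.14). *Slc39a7* (3.17 to 3.49) and *Slc39a6* (2.36 to 3.76) came next and could not be ordered, since their libraries overlapped. *Slc39a1* (1.53 to 1.96) and *Slc30a4* (1.44 to 1.56) also overlapped, above *Slc30a1* (1.12 to 1.25), and both metallothioneins were at 0. At day 5 in WT *Mt1* was highest (52.2 to 86.9 RPKM), followed by *Mt2* (15.9 to 20.6) and *Slc39a6* (9.67 to 11.4). *Slc39a10* (7.33 to 8.59) and *Slc30a4* (6.48 to 8.91) overlapped, as did *Slc39a1* (1.83 to 2.75) and *Mtf1* (2.09 to 2.32). *Slc39a7* (1.09 to 1.77) and then *Slc30a1* (0.0670 to 0.137) were lowest. At day 0 in the KO-labelled libraries, *Slc39a10* was again highest (6.09 to 8.37 RPKM) and *Mtf1*, *Slc39a7*, *Slc39a6* and *Slc39a1* overlapped below it, between 2.17 and 4.57. At day 5 the order in these libraries began with *Mt1* (90.0 to 96.5), *Mt2* (29.8 to 37.1), *Slc39a6* (10.98 to 12.6) and *Slc39a10* (7.52 to 7.96), and *Slc30a4* (3.30 to 4.05) lay below *Slc39a10* without overlap.

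A list of 21 other zinc genes covered the remaining metallothioneins and the ZnT and ZIP families. *Mt3* had at most 4 counts and *Mt4* none in any library, so *Mt1* and *Mt2* carried nearly all metallothionein counts. In all, 12 of the 21 genes passed the filter. In WT, 3 rose and 4 fell from day 0 to day 5 (median log2 fold change -0.02, against -0.04 over all genes), and in the KO-labelled libraries 2 rose and 3 fell (median -0.14, against -0.05). Calls were thus made for 7 and 5 of the 12, near the 48.3% and 50.2% of all genes called. *Slc39a8*, which encodes the zinc importer ZIP8 of lysosomal and plasma membranes, rose in WT from 0.891 and 0.901 CPM to 5.27 and 9.60 CPM (log2 fold change 3.01, SE 0.60, FDR 0.00122). Its day 0 counts were 5 and 4 in WT and 7 and 10 in the KO-labelled libraries. It also rose in the KO-labelled libraries, from 0.598 and 1.83 CPM to 5.87 and 4.91 CPM (log2 fold change 2.31, SE 0.55, FDR 0.00386), and missed the threshold without the first of those libraries at day 0 (FDR 0.0508). *Slc39a4*, which encodes the importer ZIP4 known from dietary zinc uptake, rose in the KO-labelled libraries from 4.10 and 4.94 to 18.1 and 18.3 CPM (log2 fold change 2.03, SE 0.33, FDR 0.000244). In WT its rise from 4.63 and 5.86 to 14.8 and 7.68 CPM (log2 fold change 1.13, SE 0.35, FDR 0.0175) rested on single libraries, with FDR 0.238 without the first WT library at day 5 and 0.104 without the first at day 0.

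Among those that fell, *Slc39a3*, which encodes the plasma membrane importer ZIP3, went from 5.17 and 6.31 to 1.23 and 0.720 CPM in WT (log2 fold change -2.48, SE 0.50, FDR 0.00126) and from 5.13 and 4.02 to 1.10 and 0.943 CPM in the KO-labelled libraries (-2.16, SE 0.48, FDR 0.00249). Its day 5 values are counts of 7 and 3 in WT and 6 and 5 in the KO-labelled libraries. *Slc39a11*, which encodes ZIP11, fell in WT from 37.8 and 49.6 to 13.9 and 13.7 CPM (log2 fold change -1.66, SE 0.30, FDR 0.000705). In the KO-labelled libraries it was at 48.6 and 23.4 CPM at day 0 and at 23.6 and 24.7 CPM at day 5 (-0.60, SE 0.28, FDR 0.0952), a value that went to 0.06 without the first day 0 library and to -0.99 (FDR 0.00234) without the second. It was also called lower with library totals (-0.78, FDR 0.036), without the filter on low counts (-0.66, FDR 0.0301) and with the GC and length offset (-0.94, FDR 0.0155). Whether the culture response differed between genotypes was tested by the interaction, which edgeR and DESeq2 called for none of the 12 genes (2 at an unadjusted p under 0.05) and edgeR for 0.159% of all genes. *Slc39a9*, which encodes ZIP9, fell in WT (-0.79, SE 0.21, FDR 0.00794) and in the KO-labelled libraries (-0.69, SE 0.20, FDR 0.0123). The *Slc39a9* call was lost in WT without the second library of day 0 (FDR 0.0724) or of day 5 (0.0740), and in the other genotype without the first library of day 0 (0.0852) or either library of day 5 (0.0600 and 0.103). *Slc39a13*, which encodes ZIP13, fell in WT (-1.68, SE 0.60, FDR 0.0348) and in the KO-labelled libraries (-1.58, SE 0.53, FDR 0.0258) at levels under 6 CPM. DESeq2 did not call *Slc39a13* (adjusted p 0.0876 and 0.0792), nor was it called in WT without the second library of day 0 (FDR 0.244) or either of day 5 (0.199 and 0.0616), or in the KO-labelled libraries without the second of day 0 (0.0941) or the first of day 5 (0.189). *Slc30a9*, which encodes ZnT9, rose in WT from 15.7 and 24.3 to 39.5 and 33.6 CPM (0.88, SE 0.23, FDR 0.00722), with FDR 0.0797 without the first WT library of day 0, and its log2 fold change was 0.18 (SE 0.22) in the KO-labelled libraries.

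*Slc30a5*, *Slc30a6* and *Slc30a7*, which encode the ZnT transporters of the secretory pathway, were expressed at 8.11 to 206 CPM and were not called in either genotype. With library totals *Slc30a5* was called lower in the KO-labelled libraries (-0.72, SE 0.26, FDR 0.0325). *Slc30a7* was at 158 and 150 CPM in WT at day 0 and at 206 and 167 CPM at day 5, a log2 fold change of 0.28 (SE 0.15, FDR 0.156), and was called without the second WT library at day 5 (0.44, SE 0.16, FDR 0.0479). *Slc39a14* and *Tmem163*, the other 2 that were not called, were under 8 CPM. Between genotypes none of the 12 genes was called at either day by edgeR or DESeq2 (edgeR called 1.8% of all genes at day 0 and 1.63% at day 5), with 1 at day 0 and 2 at day 5 at an unadjusted p under 0.05.

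**Figure D5:**
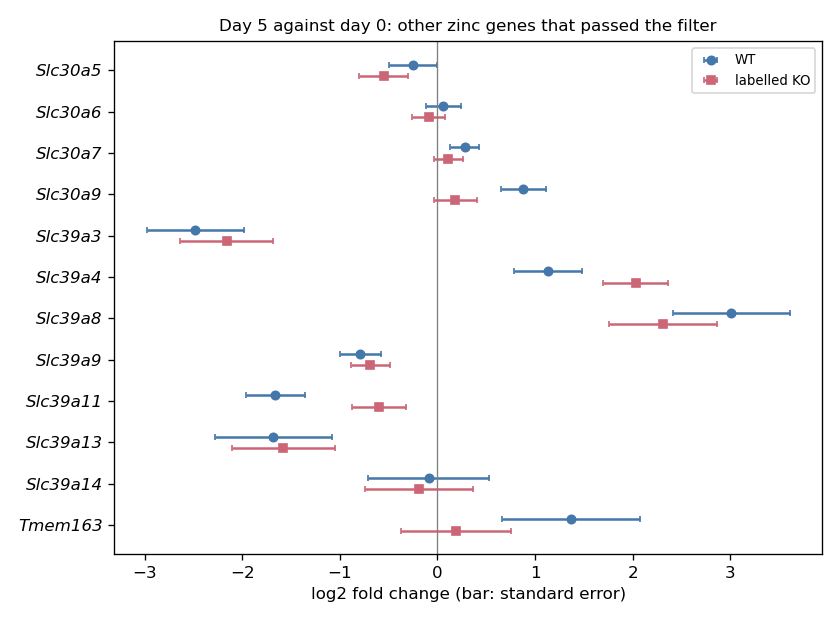
Log2 fold change of day 5 against day 0 (x axis) for the 12 other zinc genes that passed the filter, with bars for the standard error, in WT (blue circles) and KO-labelled libraries (red squares). *Slc39a8* lies at 3.01 and 2.31 and *Slc39a3* at -2.48 and -2.16; *Slc30a5*, *Slc30a6*, *Slc30a7*, *Slc39a14* and *Tmem163* did not pass the test in either genotype.

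Because metallothionein genes also answer to copper, oxidative stress and glucocorticoids, other genes of those systems and of iron handling were counted. Beside these counts stand the 48.3% of all genes called in WT and 50.2% in the KO-labelled libraries. Whether any of these systems had a part in the differences of *Mt1* and *Mt2* between days was not tested. Of 8 copper genes tested, 4 rose and 1 fell in WT and 3 rose and 1 fell in the KO-labelled libraries. *Slc31a1*, the high-affinity copper importer, rose in WT from 44.9 and 46.4 to 201 and 154 CPM (log2 fold change 1.96, SE 0.17, FDR 1.43e-06) and by 1.87 (SE 0.17, FDR 1.52e-06) in the KO-labelled libraries. *Sod1*, the copper and zinc superoxide dismutase, rose by 1.52 (SE 0.16, FDR 8.4e-06) and 1.38 (SE 0.16, FDR 1.36e-05). *Commd1*, which acts in copper export, rose by 1.51 (SE 0.19, FDR 2.85e-05) and 1.09 (SE 0.18, FDR 0.000275). *Slc31a2*, a relative of the copper importer, fell in WT (-0.83, SE 0.23, FDR 0.00916) and in the KO-labelled libraries (-0.69, SE 0.21, FDR 0.017), and the call was lost in WT without the first library of day 0 and in the other genotype under DESeq2 and without the second library of day 0 or either of day 5. Of 13 antioxidant genes tested, 5 rose and none fell in WT, and 7 rose and 1 fell in the KO-labelled libraries (medians 0.49 and 0.72, against -0.04 and -0.05 over all genes), 5 of 13 and 8 of 13 called. *Hmox1*, the heme oxygenase that metals and oxidants induce, rose in WT from 0.178 and 1.13 to 14.2 and 11.5 CPM (log2 fold change 4.37, SE 0.83, FDR 0.000892) and in the KO-labelled libraries from 0.0855 and 2.01 to 14.9 and 8.49 CPM (3.87, SE 0.74, FDR 0.00088). Its day 0 values are counts of 1 and 5 in WT and 1 and 11 in the KO-labelled libraries. *Txn1*, which encodes thioredoxin, rose by 2.87 (SE 0.15, FDR 1.29e-08) and 2.46 (SE 0.15, FDR 3.68e-08). *Gsr*, which regenerates glutathione, rose by 1.29 (SE 0.31, FDR 0.00434) in WT and 1.10 (SE 0.31, FDR 0.00973) in the KO-labelled libraries, where the call was lost without the first library of day 5 and with the GC and length offset. *Gss*, which completes glutathione synthesis, rose by 0.95 (SE 0.19, FDR 0.00122) and 0.92 (SE 0.18, FDR 0.00108). *Keap1*, which holds the oxidant-sensing factor NRF2 in check, rose by 1.05 (SE 0.21, FDR 0.00128) in the KO-labelled libraries and had a log2 fold change of 0.24 (SE 0.21, FDR 0.377) in WT. Its interaction was not called (0.81, FDR 0.315), and it was at 12.2 and 14.3 CPM in the KO-labelled libraries at day 0 against 22.3 and 18.9 CPM in WT, and at 27.5 and 26.8 against 21.4 and 27.6 CPM at day 5.

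Glucocorticoid-responsive genes did not move one way. Of 9 tested, 3 rose and 3 fell in WT and 2 rose and 3 fell in the KO-labelled libraries. *Tsc22d3*, a classical glucocorticoid target also known as GILZ, fell in WT from 2426 and 2172 to 146 and 255 CPM (log2 fold change -3.52, SE 0.24, FDR 1.33e-07), and *Fkbp5*, another, rose from 14.97 and 22.3 to 45.9 and 36.0 CPM (1.15, SE 0.24, FDR 0.00178). *Tsc22d3* also fell in the KO-labelled libraries (-3.14, SE 0.23, FDR 2.78e-07) and *Fkbp5* rose by 0.96 (SE 0.23, FDR 0.00338), the latter not without the first library of day 5. *Sgk1*, a kinase gene, fell in WT from 204 and 194 to 68.4 and 59.5 CPM (-1.64, SE 0.16, FDR 3.66e-06) and in the KO-labelled libraries (-1.36, SE 0.16, FDR 1.46e-05). *Hsd11b1*, whose enzyme regenerates active glucocorticoid, fell in both as well (-0.83, SE 0.13, FDR 0.000185, and -1.11, SE 0.13, FDR 1.67e-05). Of 11 iron genes tested, 2 rose and 1 fell in WT and 2 rose and 2 fell in the KO-labelled libraries, both below the share of all genes called. *Tfrc*, the transferrin receptor through which dividing cells take up iron, rose in WT from 50.4 and 59.7 to 633 and 392 CPM (3.22, SE 0.20, FDR 6.76e-08) and by 2.33 (SE 0.19, FDR 7.69e-07) in the KO-labelled libraries. In WT *Aco1*, which encodes an iron regulatory protein, rose (0.67, SE 0.18, FDR 0.00752), a call lost without the first library of day 0, and *Ncoa4*, the receptor for breakdown of ferritin, fell (-0.58, SE 0.19, FDR 0.0226), a call lost under DESeq2, without the filter and in 5 of the 8 fits that left out a library. The ferritin gene *Ftl1* rose in the KO-labelled libraries by 0.41 (SE 0.11, FDR 0.00649). *Ireb2*, another iron regulatory protein gene, fell there (-0.65, SE 0.17, FDR 0.0066), as did the mitochondrial importer gene *Slc25a37* (-0.89, SE 0.34, FDR 0.0441). Single libraries and settings also decided these 3: *Ftl1* was not called with library totals, with the GC and length offset or without the first library of day 5, *Ireb2* not with that offset or without the second library of day 5, and *Slc25a37* not under 4 of 7 other settings and 5 of the 8 fits without a library. The WT count of iron genes dropped to 1 without the first WT library at day 0, and that of copper genes to 3. The iron count in the KO-labelled libraries dropped to 2 without either of them at day 5. No gene of these 4 lists was called between genotypes at either day by edgeR or DESeq2, although 0 to 3 genes per list and day had an unadjusted p under 0.05. Without the second WT library at day 5, *Tfrc* was called lower in the KO-labelled libraries at day 5. In the interaction, too, no gene of the 4 lists was called by edgeR or DESeq2 (0 to 4 per list at an unadjusted p under 0.05), except *Tfrc* in edgeR without that library or without the filter on low counts.

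The genes whose pattern over the 8 libraries was most like that of a member, by Pearson r of log2 CPM, were named as a description. The 8 libraries fall into 2 days and share depth and preparation among all genes, so such an r carries the gap between days that a large share of all genes shows. For *Mt1* they were *Prdx4* (r = 0.9992), *Lgals1* (0.9992), *Dsn1* (0.9989), *Bnip3* (0.9986) and *Pilrb1* (0.9986). For *Mt2* they were *Cysltr1* (0.9984), *S100a4* (0.9976), *Gm26762* (0.9972), *Thsd1* (0.9972) and *Cdkn1a* (0.9971). For *Slc30a1*, low at day 5, they were *St3gal1* (0.9975), *Cd83* (0.9973), *Rnf167* (0.9956), *Gria3* (0.995) and *Ephx1* (0.995). For *Slc39a10* the likeness was weaker, from *Gm12020* (0.9321) and *Ino80c* (0.9175) to *Ccdc43* (0.8749), and for *Slc39a1* it was weaker still, from *Mff* (0.914) to *Zbtb26* (0.8638). *Bnip3* went from a mean of 2.62 CPM in WT at day 0 to 622 CPM at day 5, and *Cdkn1a* from 0.202 to 214 CPM.

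Other cell types that a sort could leave were followed by their markers. The summed level of 7 myeloid markers was 10.3 to 18.9 CPM at day 0 and 4.04 to 5.85 CPM at day 5, with *S100a9* at 0 in every library and *Cd14* at 0 at day 5. The 4 stromal markers summed to at most 4.21 CPM and the 6 erythroid markers to at most 1.13 CPM. The 5 B-cell markers summed to 121 to 166 CPM at day 0 and 67.1 to 84.0 CPM at day 5, nearly all of it *Cd79b*. The 3 NK-cell markers summed to 10.7 to 17.3 CPM at day 0 and 37.4 to 53.9 CPM at day 5, nearly all of it *Eomes*, which CD8+ T cells also express. Their part in the differences of *Mt1*, *Mt2*, *Slc30a1* and *Mtf1* between days was not tested. In bulk RNA, fewer cells expressing a gene and less RNA per cell cannot be told apart.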

How the data were processed

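Sequenced RNA of spleen CD8+ T cells made up 8 libraries, 2 per group. Per the labels, total RNA was extracted with Trizol and a Direct-zol kit, made into libraries with an NEBNext Ultra RNA kit and read as 50-base reads on a HiSeq2500. The authors deposited 1 table per library of unnormalized counts by gene symbol, which ends with the summary lines that HTSeq writes. The submitters' processing notes name HISAT2 2.1.0, HTSeq 0.11.1 and the build mm10 (GRCm38). The annotation and strand setting of the counting are not given in the sources used here. Reads aligned to more than 1 place (31.8 to 37.4% per library) and reads in several genes (0.466 to 0.571%) were in the summary lines and entered neither library sizes nor tests.

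Groups were taken from the sample titles. The 9 genes and all other lists were chosen with earlier results of these data known. Counts were fitted with edgeR 4.0.16 in R 4.3.3, as 1 quasi-likelihood model with a mean per group over all 8 libraries, TMM size factors (trimmed mean of M-values) and a minimum count of 10 in the filter. The common biological coefficient of variation was 15%. Two-sided p-values were Benjamini-Hochberg adjusted over 12597 genes (FDR), with an FDR under 0.05 counted as a call. CPM and RPKM used TMM-scaled library sizes, RPKM with GENCODE M21 exon lengths, which may differ from the annotation used for counting. Counts of the 2 libraries of a group differed by 4.69 to 9.40 times the sampling noise (chi-square per degree of freedom), so none was counted as a duplicate. Named genes were all 9 members, *Satb1*, every other zinc gene tested, and per other list and culture comparison up to 4 called genes with the largest change and at least 10 CPM in the higher group; *Cd8a*, *Cd8b1*, *Gzmb* and *Cd40lg* were named after their values were seen. Pattern neighbours were the 5 genes of highest r with at least 10 CPM. Alternatives were other size factors, library totals, no filter, the 4 libraries of a comparison alone, a replicate block, DESeq2 1.42.0, an offset for GC content and exon length, and leaving out each library. No p-value is given for the 9 genes.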

Additional observations from a re-analysis of the deposited data

Results flagged for a closer look

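The difference between genotypes in *Satb1* itself differed between days: the log2 fold change of the KO-labelled libraries against WT was 0.51 (SE 0.15) at day 0 and -0.84 (SE 0.15) at day 5, and the interaction of genotype and day was -1.34 (edgeR quasi-likelihood test, FDR 0.0269). That call was lost in 6 of the 8 fits that left out a library, with FDR 0.0541 to 0.23 (0.0541 without the first KO-labelled library of day 0, 0.0559 without the second WT library of day 5, 0.171 and 0.23 without either WT library of day 0, 0.177 and 0.141 without either KO-labelled library of day 5), and with an offset for GC and exon length (0.0791). *Satb1* was higher in 2 of 2 KO-labelled libraries at day 0 (143.6 and 124.3 CPM against 97.5 and 91.3) and lower in 2 of 2 at day 5. None of the 9 metallothionein and zinc transporter genes met a criterion for a closer look.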

How the results depend on the processing

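None of the 9 genes changed direction where it was called, under any alternative. Without the filter on low counts, 8 other zinc genes were called from day 0 to day 5 in the KO-labelled libraries (5 with it), 434 genes between genotypes at day 0 (227), 418 at day 5 (205), 154 in the interaction (20), and 1 iron gene (*Tfrc*) in the interaction (0). DESeq2 called 350 genes at day 5 and 144 in the interaction. An offset per library for GC and exon length called 121 genes at day 5, 12 in the interaction, 0 of the 9 genes at day 5 (1 without it, *Slc30a4*) and 2 iron genes in the KO-labelled libraries (4). The causes were not tested. With library totals the culture calls split as 2670 higher and 3547 lower in WT (3112 and 2969 with TMM) and 2765 and 3912 in the KO-labelled libraries (3296 and 3029), and with the GC and length offset as 2617 and 3492, and 2810 and 3763. Leaving out 1 library gave 36 to 278 genes called at day 0, 31 to 257 at day 5 and 0 to 41 in the interaction, 0 to 1 of the 9 genes at day 5, 3 to 7 other zinc genes in the KO-labelled culture comparison, 3 to 5 copper and 1 to 3 iron genes in the WT culture comparison, 2 to 5 iron genes in the other, and 0 to 1 iron genes at day 5 and in the interaction. The fewest genes were called without WT replicate 1 of day 0 (36 at day 0 and 0 in the interaction) and without the KO-labelled replicate 2 of day 5 (31 at day 5). With 1 library left in a group, it was assumed to vary like the others.

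Of the other zinc genes, uncalled log2 fold changes reversed as follows. In WT, *Slc30a6* went from 0.06 to -0.09 with library totals, -0.32 with the GC and length offset and -0.17 to 0.28 when 1 library was left out, and *Slc39a14* from -0.09 to 0.06 with the offset and to between -1.62 and 0.58 when 1 library was left out (0.56 without WT replicate 1 of day 0). In the KO-labelled libraries, *Slc30a7* went from 0.11 to -0.07 with library totals and -0.02 to 0.27 with 1 library left out, *Tmem163* from 0.19 to -0.08 with the offset and -0.15 to 0.55 with 1 library left out, *Slc39a11* from -0.60 to 0.06 without replicate 1 of day 0 (-0.99 without replicate 2), *Slc30a6* from -0.09 to 0.01 (-0.15 to 0.01) and *Slc39a14* from -0.19 to 0.16 and 0.20 (-0.67 to 0.20), each with 1 library left out. The alternatives for copper, iron, antioxidant and glucocorticoid-responsive genes were chosen after seeing the data.

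The labels do not say that replicate numbers pair libraries. Deviations of same-numbered libraries correlated at 0.118 (WT) and 0.228 (KO-labelled) between days and at -0.0165 and 0.00438 between genotypes. A replicate block in the model gave 5999 and 6291 called genes in the culture comparisons, 216 and 215 between genotypes at day 0 and day 5 and 29 in the interaction, with 7, 6, 0, 1 and 0 of the 9 genes. Pooled counts of 5 and 7 behind *Slc30a1* at day 5 limit the precision of its values.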
